A study of Mus musculus with 4 samples.

Results

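The genes described are the NR4A and EGR activation-induced transcription factors and a partner of the EGR proteins, 7 genes in all of 35275 gene identifiers in the count table: Nr4a1, Nr4a2, Nr4a3, Egr1, Egr2, Egr3 and Nab2. They are given by a list of symbols, and each symbol was found once. All 7 had a mean of at least 5 CPM, counts scaled to the size of the library, in every pair of libraries compared.

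NR4A1, NR4A2 and NR4A3 are orphan nuclear receptors, which act without a known physiological ligand and are controlled mainly by how much of them is made. EGR1, EGR2 and EGR3 are zinc finger factors that bind GC-rich sites. Both families are immediate early genes: in lymphocytes, engagement of activating receptors switches them on within a short time through calcium and MAP kinase signalling, and in T cells sustained NR4A and EGR2 or EGR3 expression is associated with tolerance and exhaustion. NAB2 binds EGR1, EGR2 and EGR3 and represses or tunes their activity, and its gene is itself a target of EGR factors.

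Expression was measured by bulk RNA sequencing of mouse spleen NK (natural killer) cells, which are innate lymphocytes able to kill tumour cells without prior sensitization. There was 1 library in each of 4 groups. The first group was Irf4-/- mice given an intravenous injection of B16-F10 melanoma cells and examined 20 days later, and the second was WT C57BL/6 mice given the same injection. The third was Irf4-/- mice without injection and the fourth WT mice without injection, called control. In all 4 groups the cells were enriched with the EasySep Mouse NK Cell Isolation Kit and then sorted for NK1.1 and the absence of CD3. Not given in the labels are the number of animals per library, their age and the deleted part of Irf4.

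Total counts were 15878159 to 21104881 per library. The 12 NK cell markers summed to 15230 to 16930 CPM in the 4 libraries, against 120.8 to 145.4 CPM for 9 T cell markers. Cd28 alone gave 72.3 to 96.4 CPM of the T cell sum. Irf4, the targeted gene, had 12.7 CPM in Irf4-/- injected and 3.07 CPM in WT injected, and 11.8 CPM in Irf4-/- control and 4.40 CPM in WT control. It was therefore higher in both libraries labelled Irf4-/-, so each genotype direction below is that of the libraries labelled so and depends on the labels. Over 9674 genes the WT injected library lay farthest from the others, at a root-mean-square log2 distance of 0.359 to 0.399, against 0.234 to 0.325 among the other 3 libraries. Every value that uses WT injected therefore also carries what sets that library apart.

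The promoters of 4 members are shown because they hold short elements through which activation signals are known to reach these families. Those of Egr1 and Egr3 were not searched here. The capitals in the sequences mark matches, on either strand, to the core of the cAMP response element (TGACG), to the EGR site (GCGGGGGCG) and to the CArG box of serum response factor. The sequences are from RefSeq with coordinates in GRCm38.p6, 5′ to 3′ on the gene's own strand, and end at the start of transcription or of an annotated exon. They are Nr4a1 on the plus strand at chr15:101266596-101266845, Nr4a2 on the minus strand at chr2:57124004-57124253, Nr4a3 on the plus strand at chr4:48045055-48045152, and Egr2 on the plus strand at chr10:67537619-67537868.
Nr4a1: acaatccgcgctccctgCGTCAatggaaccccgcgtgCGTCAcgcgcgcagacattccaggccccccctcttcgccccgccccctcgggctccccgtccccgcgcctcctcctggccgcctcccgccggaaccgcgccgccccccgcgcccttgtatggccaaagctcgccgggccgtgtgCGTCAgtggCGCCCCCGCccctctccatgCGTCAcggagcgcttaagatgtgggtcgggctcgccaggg
Nr4a2: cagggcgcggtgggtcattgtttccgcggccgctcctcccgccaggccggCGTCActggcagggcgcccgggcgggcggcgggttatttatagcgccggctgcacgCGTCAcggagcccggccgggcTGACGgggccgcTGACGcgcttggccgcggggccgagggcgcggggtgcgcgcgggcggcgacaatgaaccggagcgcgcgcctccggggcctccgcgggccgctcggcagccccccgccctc
Nr4a3: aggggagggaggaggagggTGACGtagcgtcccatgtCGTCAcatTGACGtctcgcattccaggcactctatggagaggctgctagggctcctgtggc
Egr2: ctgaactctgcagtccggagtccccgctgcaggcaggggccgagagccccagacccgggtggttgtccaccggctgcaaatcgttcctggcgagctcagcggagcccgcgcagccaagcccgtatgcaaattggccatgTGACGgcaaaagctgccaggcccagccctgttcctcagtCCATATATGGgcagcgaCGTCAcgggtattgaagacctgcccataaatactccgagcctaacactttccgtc

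Windows of 300 bases, 250 before the start and 50 after it, were searched on both strands for 7 motifs. The core TGACG was found 4 times in the windows of Nr4a1, Nr4a2 and Nr4a3, although 20.8% of all 32851 promoter windows held it at all and 0.231% held it 4 times or more. For Nr4a3, 3 of the 4 matches lie in the stretch shown. The Egr2 window shown, 1 of 5 for that gene, held the core at 2 positions and a CArG box between them, an element that 1.63% of windows held. The Egr2 window at chr10:67535249-67535548 held none of the 7 motifs. That at chr10:67537316-67537615 held a CArG box and no core. The remaining Egr2 windows overlap the one shown and hold the same matches. The Nr4a1 window also held the EGR site, which 2.91% of windows held, and the Nr4a2 window held the TATA box motif TATAAA, which 13.6% held. The full cAMP response element TGACGTCA (1.79% of windows), which contains the core, the NR4A element AAAGGTCA (1.51%) and the EGR site variant GCGTGGGCG (0.612%) had no match in the windows of these 4 genes. The window of Nab2, the only other member searched, held none of the 7 motifs. A match describes the letters of the window and not a bound site, and no match says only that the letters are not in it.

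Per length, the 7 genes were moderately expressed. FPKM, the authors' deposited values per gene length and library size, are used here to compare levels between genes. In WT control NK cells the FPKM levels were 18.7 for Nr4a1, 16.9 for Nab2, 7.80 for Nr4a3, 6.53 for Egr3, 5.80 for Nr4a2, 5.64 for Egr1 and 3.29 for Egr2. The place of Egr3 in this order depends on its gene length, since the deposited FPKM used 1416 bases while the merged exons of Egr3 in the GENCODE annotation span 4406 bases. With the merged exons Egr3 stood at 2.10 FPKM in WT control, below Egr2 as deposited. For the other 6 members the deposited length was 2474 to 5720 bases and the merged exons 2941 to 5987 bases.

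Nr4a1 made up more than any other member of the NR4A total. The summed FPKM of Nr4a1, Nr4a2 and Nr4a3 was 25.1 in Irf4-/- injected and 38.2 in WT injected, and 22.1 in Irf4-/- control and 32.3 in WT control. The Nr4a1 share of that sum was 52.9% in Irf4-/- injected and 64.9% in WT injected, and 54.6% in Irf4-/- control and 57.9% in WT control. The total was thus lower in both libraries labelled Irf4-/- than in either WT library. The summed FPKM of Egr1, Egr2 and Egr3 was 18.4 in Irf4-/- injected and 15.4 in WT injected, and 10.7 in Irf4-/- control and 15.5 in WT control. Here the Irf4-/- control library alone was low. In bulk RNA, fewer cells that transcribe a gene and less RNA per cell cannot be told apart.

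**Figure D1:**
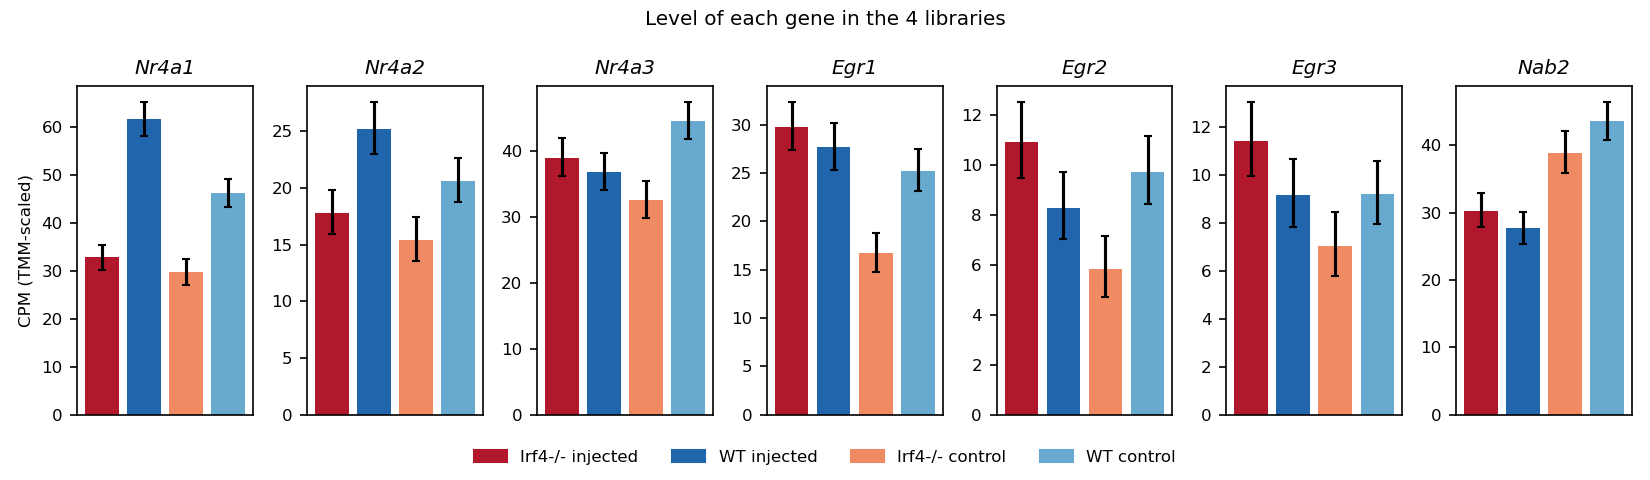
Level of each of the 7 genes in the 4 libraries, in CPM scaled by the trimmed mean of M values, with 1 bar per library and 95% Poisson counting intervals. Nr4a1 is lower in both libraries labelled Irf4-/- (32.8 and 29.8 CPM) than in both WT libraries (61.7 and 46.2 CPM), while Egr1, Egr2 and Egr3 are lowest in Irf4-/- control.

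Nr4a1 (ENSMUSG00000023034, chromosome 15, 101254269 to 101274795, plus strand, GRCm38) encodes NUR77, the receptor whose transcription is widely used as a readout of antigen receptor signalling. It had 612 counts, or 32.8 CPM, in Irf4-/- injected and 1144 counts, or 61.7 CPM, in WT injected. In control mice it had 474 counts, or 29.8 CPM, in Irf4-/- and 978 counts, or 46.2 CPM, in WT. Both libraries labelled Irf4-/- were below both WT libraries. The log2 ratio of Irf4-/- over WT was -0.91 (-1.05 to -0.77) in injected mice and -0.63 (-0.80 to -0.47) in control mice. Intervals in parentheses are 95% counting intervals: they cover counting error only, treat reads as independent molecules, and say nothing of differences between animals.

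In a model of the 4 libraries with additive terms for genotype and injection, edgeR's quasi-likelihood test found that Nr4a1 fell by 0.77 on the log2 scale in the libraries labelled Irf4-/- (SE 0.123, Benjamini-Hochberg adjusted p = 0.0104). Nr4a1 was the only member to pass for genotype, 1 of 7 falling and 0 of 7 rising, while 0.258% of the 11998 genes tested fell and 1.22% rose. The test has 1 residual degree of freedom and borrows its spread from all genes. Its p-value sets the genotype change only against how these libraries depart from additivity. Since the labels give no separate animals, it does not set the change against differences between animals. With the injection term left out of the model the change was -0.78 and did not pass (adjusted p = 0.206). In the other 6 fits tried, the adjusted p ranged between 7.57e-07 and 0.0112. Without the WT injected library the Irf4-/- over WT value was that of the control pair, -0.63, and without WT control that of the injected pair, -0.91, neither with a test.

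Nr4a2 (ENSMUSG00000026826, chromosome 2, 57106830 to 57124003, minus strand), which encodes NURR1, ordered the 4 libraries as Nr4a1 did. It had 17.8 CPM in Irf4-/- injected and 25.2 CPM in WT injected, and 15.4 CPM in Irf4-/- control and 20.7 CPM in WT control. The log2 ratio of Irf4-/- over WT was -0.50 (-0.71 to -0.30) in injected mice and -0.42 (-0.66 to -0.20) in control mice. For both genes WT injected was highest, WT control next, and the 2 libraries labelled Irf4-/- did not differ from each other beyond counting error. In the additive model the genotype change of Nr4a2 was -0.46 (SE 0.149) and did not pass after adjustment over all genes (adjusted p = 0.25 in edgeR, unadjusted p = 0.0104).

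Nr4a3 (ENSMUSG00000028341, chromosome 4, 48045153 to 48086447, plus strand), which encodes NOR1, took another course. It had 38.9 CPM in Irf4-/- injected and 36.8 CPM in WT injected, and 32.6 CPM in Irf4-/- control and 44.5 CPM in WT control. The highest and the lowest level were therefore both in control mice, and the injected libraries lay between them with no difference beyond counting error. The log2 ratio of Irf4-/- over WT was 0.08 (-0.07 to 0.24) in injected mice and -0.45 (-0.61 to -0.30) in control mice. The additive genotype change was -0.18 (SE 0.145, adjusted p = 0.772 in edgeR).

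Egr1 (ENSMUSG00000038418, chromosome 18, 34859823 to 34864984, plus strand), the founding member of the EGR family, had 29.8 CPM in Irf4-/- injected and 27.7 CPM in WT injected, and 16.7 CPM in Irf4-/- control and 25.2 CPM in WT control. The Irf4-/- control library was low and the other 3 did not differ, neighbour to neighbour, beyond counting error. Irf4-/- injected and WT control, which are not neighbours in that order, were not compared by an interval. The log2 ratio of Irf4-/- over WT was 0.11 (-0.07 to 0.28) in injected mice and -0.59 (-0.81 to -0.38) in control mice.

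Egr2 (ENSMUSG00000037868, chromosome 10, 67535475 to 67542188, plus strand), known with Egr3 as a restrainer of T cell activation, had the same low library on fewer reads. It had 204 counts, or 10.9 CPM, in Irf4-/- injected and 154 counts, or 8.30 CPM, in WT injected, and 93 counts, or 5.84 CPM, in Irf4-/- control and 206 counts, or 9.74 CPM, in WT control. The log2 ratio of Irf4-/- over WT was 0.39 (0.09 to 0.71) in injected mice and -0.73 (-1.11 to -0.38) in control mice. The sign thus differed between injected and control mice, with both intervals clear of 0.

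Egr3 (ENSMUSG00000033730, chromosome 14, 70077203 to 70082614, plus strand), a close relative of Egr2, had 11.4 CPM in Irf4-/- injected and 9.17 CPM in WT injected, and 7.04 CPM in Irf4-/- control and 9.22 CPM in WT control. Its log2 ratio of Irf4-/- over WT was 0.31 (0.02 to 0.62) in injected mice and -0.38 (-0.74 to -0.05) in control mice, again of opposite sign. The level in Irf4-/- injected was beyond counting error above that in WT control, and the 2 WT libraries did not differ. Taken as summed counts, the 3 EGR genes had a log2 ratio of 0.21 (0.07 to 0.34) in injected mice and -0.58 (-0.74 to -0.42) in control mice. No EGR gene passed for genotype in edgeR, with additive changes of -0.23 for Egr1 (adjusted p = 0.757), -0.15 for Egr2 (adjusted p = 0.932) and -0.02 for Egr3 (adjusted p = 0.993). Egr4, the remaining family member, had 2 counts in WT control and 0 in each of the other 3 libraries, where 3 counts, the limit a count of 0 allows, correspond to 0.161 CPM in Irf4-/- injected, 0.162 CPM in WT injected and 0.189 CPM in Irf4-/- control.

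Nab2 (ENSMUSG00000025402, chromosome 10, 127660918 to 127668568, minus strand) separated the libraries by injection. It had 565 counts, or 30.3 CPM, in Irf4-/- injected and 513 counts, or 27.7 CPM, in WT injected, and 619 counts, or 38.9 CPM, in Irf4-/- control and 922 counts, or 43.6 CPM, in WT control. Both injected libraries were below both control libraries, and the 2 injected libraries did not differ beyond counting error. The log2 ratio of injected over control was -0.36 (-0.53 to -0.19) in the libraries labelled Irf4-/- and -0.65 (-0.81 to -0.50) in WT.

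In the additive model the injection change of Nab2 was -0.51 (SE 0.131) and did not pass after adjustment over all genes (adjusted p = 0.114 in edgeR, unadjusted p = 0.00264). Its adjusted p ranged between 0.0127 and 0.497 in the other 7 fits tried, and it passed in 3 of them. Exons of Nab2 overlap those of Stat6 by 40 bases and of Nemp1 by 151 bases, both on the opposite strand, and whether counting used strand is not given. The log2 ratios of injected over control of these neighbours were -0.04 for Stat6 and -0.36 for Nemp1 in the libraries labelled Irf4-/-, and -0.18 for both in WT, so Stat6 had a smaller ratio than Nab2 in both genotypes and Nemp1 the same ratio in the libraries labelled Irf4-/-. The antisense transcript Gm16229, which shares 1050 exon bases with Nab2, had 0 counts in all 4 libraries.

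Nab1, the related corepressor of the same proteins, was more abundant than Nab2 per length in every library. It had 41.3 FPKM in Irf4-/- injected and 36.5 FPKM in WT injected, and 42.6 FPKM in Irf4-/- control and 47.0 FPKM in WT control. Its log2 ratio of injected over control, on the CPM scale, was -0.04 (-0.12 to 0.04) in the libraries labelled Irf4-/- and -0.35 (-0.43 to -0.28) in WT, a smaller size than that of Nab2 in each genotype. The ratio of Nab2 FPKM to the summed EGR FPKM was 0.638 in Irf4-/- injected and 1.41 in Irf4-/- control, and 0.693 in WT injected and 1.09 in WT control. Relative to the EGR genes, Nab2 was thus lower in both injected libraries. This ratio inherits the deposited length of Egr3.

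Read across the 4 pairs, none of the 7 genes reached the rule of size, which asks for a ratio of 2-fold or more with the counting interval clear of 1 and a mean of at least 5 CPM. Over all measured genes that rule was met by 1.78% for genotype in injected mice, 0.807% for genotype in control mice, 0.350% for injection in Irf4-/- mice and 1.90% for injection in WT mice. The smaller differences between libraries were beyond counting error in a large part of all genes too, which is the background for the counts that follow.

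For genotype in control mice, 7 of 7 members had an interval below 0 and 0 of 7 above it, against 18.7% and 18.0% of 9660 genes. The member median was -0.45, and the median of all genes was -0.01. This pair of libraries was the only one of the 4 in which the 7 genes lay on 1 side. For genotype in injected mice, 2 of 7 were below 0 (Nr4a1 and Nr4a2) and 2 of 7 above it (Egr2 and Egr3), against 27.6% and 27.2% of 9685 genes, with a member median of 0.11.

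For injection in Irf4-/- mice, 4 of 7 had an interval above 0 and 1 of 7 below it, against 20.4% and 20.8% of 9702 genes. The 3 EGR genes were the highest of them. Egr1 stood at 0.83 (0.62 to 1.05), Egr2 at 0.89 (0.54 to 1.27) and Egr3 at 0.69 (0.36 to 1.04), with Nr4a3 at 0.26 (0.09 to 0.42) and Nab2 the one below. Summed, the 3 EGR genes had 973 counts in Irf4-/- injected and 471 counts in Irf4-/- control, a log2 ratio of 0.82 (0.66 to 0.98).

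For injection in WT mice, 2 of 7 were above 0 (Nr4a1 at 0.42 and Nr4a2 at 0.29) and 2 of 7 below it (Nr4a3 at -0.28 and Nab2), against 30.2% and 30.8% of 9633 genes. The summed EGR counts had a log2 ratio of 0.03 (-0.10 to 0.17) in WT, within counting error of no difference. The NR4A sum stood at 0.15 (0.07 to 0.23) in WT, against 0.20 (0.10 to 0.31) in the libraries labelled Irf4-/-.

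**Figure D2:**
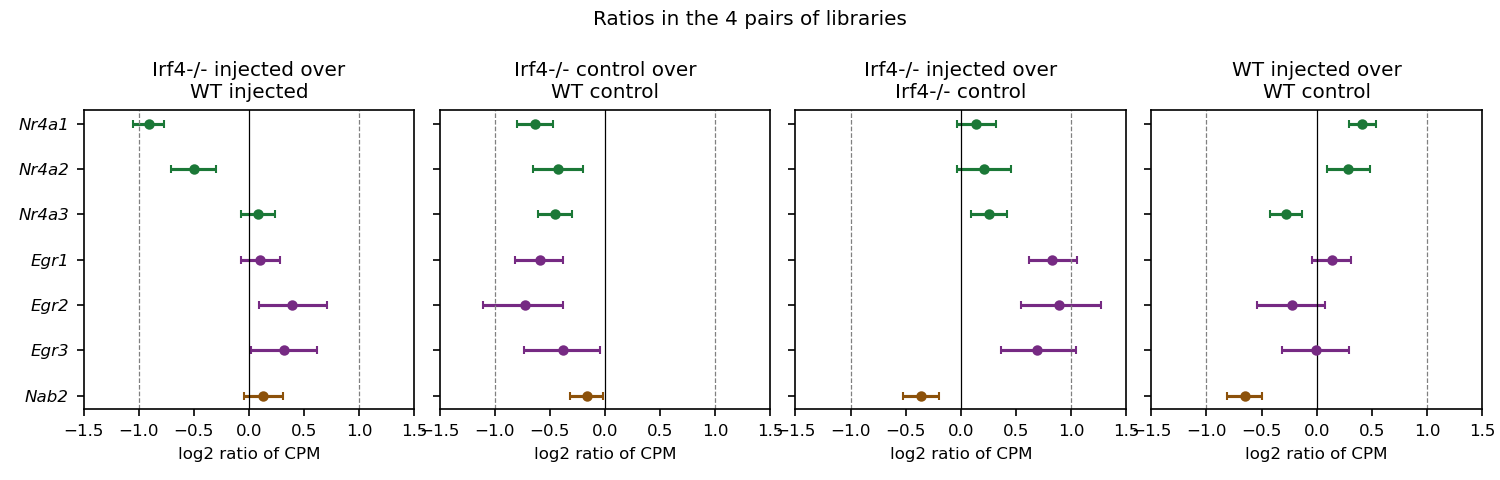
Log2 ratio of each member in the 4 pairs of libraries, first-named library over second, with 95% counting intervals. The dashed lines mark 2-fold, which no member's point reaches, and in control mice all 7 points lie below 0.

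The difference between the injection responses, Irf4-/- minus WT, describes how far the 2 genotypes departed from a common response. With 1 library a group it has no test. Its interval lay above 0 for 5 of 7 members and below 0 for 1 of 7, against 23.3% and 22.6% of 9523 genes. Egr2 had a difference of 1.12 (0.65 to 1.58), Egr1 of 0.70 (0.42 to 0.97), Egr3 of 0.70 (0.25 to 1.14), Nr4a3 of 0.53 (0.32 to 0.75) and Nab2 of 0.29 (0.07 to 0.52). Nr4a1 had a difference of -0.28 (-0.49 to -0.06). For Nr4a2 it was -0.08 (-0.38 to 0.22), which includes 0. All 4 libraries enter these differences, so 1 library that stands apart moves all 3 EGR values together. For the EGR genes Irf4-/- control was low. Irf4-/- injected was also above WT injected for Egr2 at 0.39 (0.09 to 0.71) and Egr3 at 0.31 (0.02 to 0.62). For Egr1 that ratio was 0.11 (-0.07 to 0.28). The part of each library was not tested.

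For the additive injection effect, 0 of 7 members passed in edgeR, where 0.333% of the 11998 genes rose and 0.392% fell. At an unadjusted p under 0.05 there were 3 of 7 members, Nr4a1, Egr1 and Nab2, against 14.2% of all genes tested, and DESeq2 and limma-voom each called 0. The additive injection change was 0.47 for Egr1 (SE 0.175, adjusted p = 0.25), 0.32 for Egr2 (adjusted p = 0.638), 0.34 for Egr3 (adjusted p = 0.538) and 0.29 for Nr4a1 (adjusted p = 0.324).

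**Figure D3:**
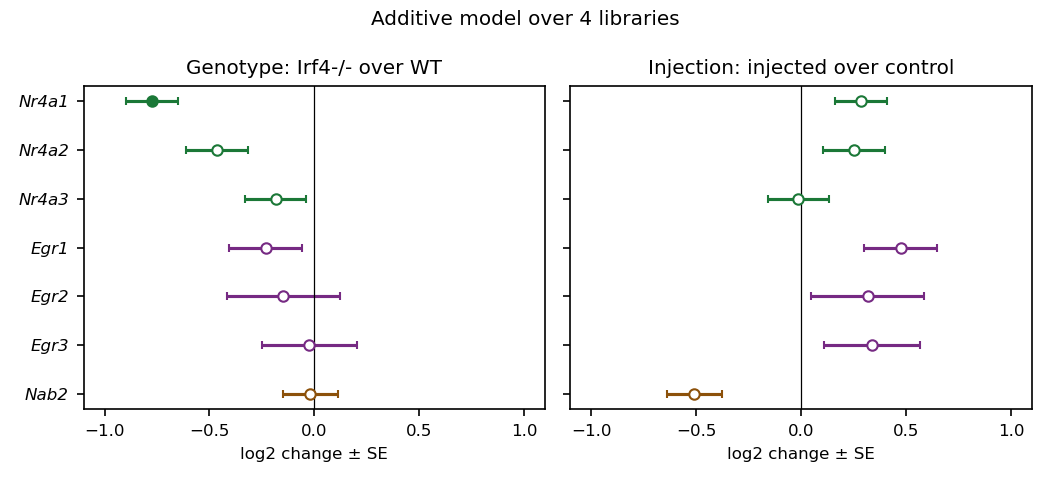
Additive log2 change of each member with genotype (libraries labelled Irf4-/- over WT) and with injection (injected over control), with its standard error. The one filled point, Nr4a1 for genotype at -0.77, passed an adjusted p of 0.05 in edgeR's quasi-likelihood test.

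The 7 genes varied more across the 4 libraries than most genes did. The spread, as the root-mean-square of centred log2 CPM, was 0.415 for Nr4a1, more than 96.2% of 9674 measured genes had. It was 0.336 for Egr2 and 0.162 for Nr4a3, the lowest of the members, against 0.114 for the median gene. Genes with few reads also vary by counting, and this measure does not remove that.

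By their distance over the 4 libraries, Nr4a1 and Nr4a2 lay 0.163 apart, and Egr1, Egr2 and Egr3 lay 0.124 to 0.135 apart. Nr4a3 lay 0.195 to 0.384 from the other members, nearest to Egr3. Nab2 lay 0.269 to 0.562 from the other members, farthest from Nr4a1. Among all 9674 genes, those nearest in pattern were Ppp2r3a and Tmem63b for Nr4a1 (0.0608 and 0.0613), Zbtb10 for Nr4a2 (0.0187), Yju2 for Nr4a3 (0.0311), Fdx1 for Egr1 (0.0273), Vegfc for Egr2 (0.104), Lyrm2 for Egr3 (0.0283) and AW146154 for Nab2 (0.0154). Egr3 was the fourth nearest gene of Egr2, and Egr2 was the only member to have another member among its 5 nearest. With 4 libraries many genes have a like pattern, so these are descriptions.

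Other immediate early genes had their own pattern over the pairs. Of 39 such genes, 33 were measured in the control pair. There 12 had an interval above 0 and 7 below it, against 18.0% and 18.7% of all genes. Their median was 0.05, against -0.45 for the 7 members. The largest ratio among the measured genes of the list in that pair was 1.85 (1.70 to 2.01), for Gadd45g, a stress and growth arrest gene. Fosb, a subunit of the AP-1 factor, had 19.3 CPM in Irf4-/- control and 9.74 CPM in WT control, a log2 ratio of 0.98. Dusp1, a MAP kinase phosphatase, stood at 0.63. For injection in Irf4-/- mice, where the EGR genes were higher, Fosb stood at -2.29, Dusp1 at -1.45 and Fos at -0.88. Of 33 measured, 8 had an interval above 0 and 15 below it, against 20.4% and 20.8% of all genes.

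For injection in WT mice, 21 of 34 measured immediate early genes had an interval above 0 and 12 below it. Over all genes these shares were 30.2% and 30.8%. The largest ratios of the list were 1.92 for Maff, 1.40 for the clock gene Per1 and 1.26 for the kinase gene Sik1. Tnfaip3, an inhibitor of NF-kB signalling, stood at 1.22. None of the 3 EGR genes had an interval above 0 in that pair. For genotype in injected mice, 20 of 34 had an interval below 0 and 9 above it, against 27.6% and 27.2% of all genes. Dusp1 stood at -1.44, Per1 at -1.40 and Tnfaip3 at -1.27, beside Nr4a1 at -0.91, and Gadd45g stood at 2.56. In edgeR's additive model Gadd45g was the 1 of 37 tested that rose with genotype and none fell, against 1.22% and 0.258% of all genes tested. For injection 0 of 37 passed, where 0.333% of all genes tested rose and 0.392% fell, and DESeq2 and limma-voom called 0. At an unadjusted p under 0.05 in edgeR there were 15 of 37, against 14.2% of all genes tested.

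**Figure D4:**
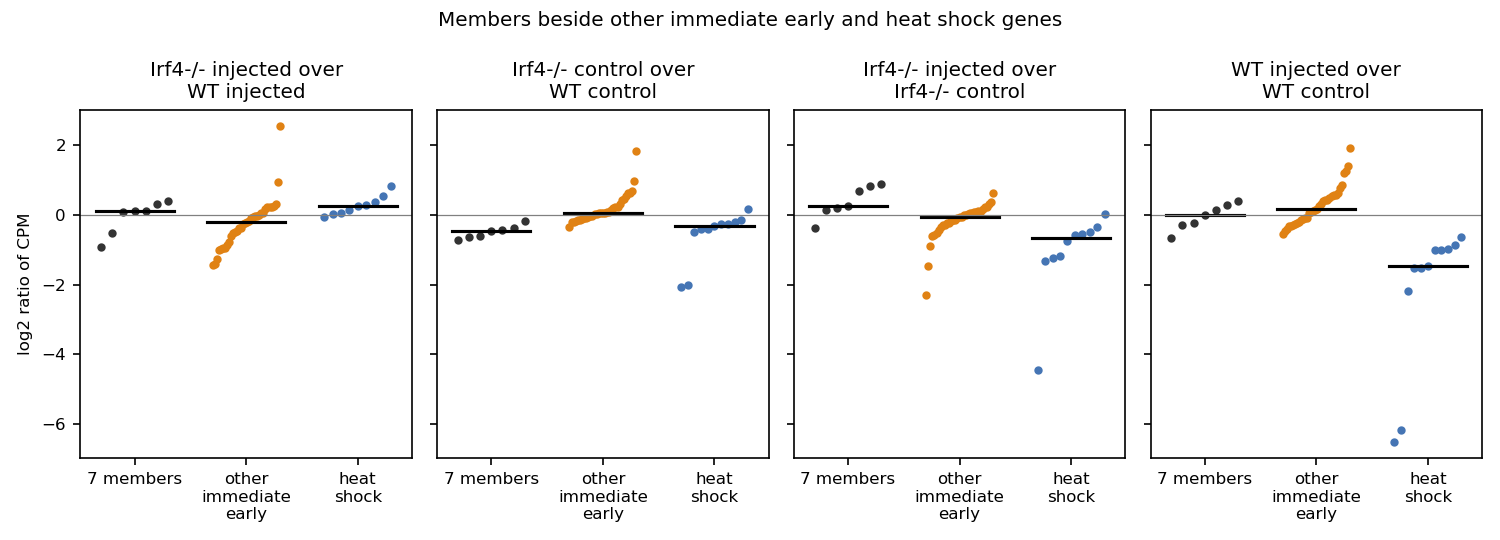
Log2 ratios of single genes in each of the 4 pairs for the 7 members, the other immediate early genes and the heat shock genes, with a black bar at each median. In control mice the member median is -0.45 and that of the other immediate early genes 0.05. The heat shock medians lie low in both injection pairs, at -0.66 for Irf4-/- and -1.47 for WT.

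Heat shock genes, which encode chaperones and rise with protein stress, mostly fell with injection. The list of 12 summed to 2935 CPM in Irf4-/- injected and 2470 CPM in WT injected, and to 4623 CPM in Irf4-/- control and 5549 CPM in WT control. With injection 8 of 11 tested fell in edgeR, against 0.392% of all genes tested. Among the 8 were Hspa1b, which fell by 5.80, Hsph1 by 1.70, Dnaja1 by 1.40 and Dnajb1 by 1.35 on the log2 scale. These 8 genes were lower in the same libraries as Nab2. Bag3, of the same list, had an injection log2 ratio of 0.02 (-0.18 to 0.22) in the libraries labelled Irf4-/- and -0.63 (-0.86 to -0.41) in WT. With genotype 0.258% of all genes tested fell, and Hspa1b was the only heat shock gene to pass. It fell by 1.72, a call that DESeq2 did not make. Its log2 ratio of Irf4-/- over WT was 0.06 (-0.94 to 1.08) in injected mice, from 19 and 18 counts, and -2.01 (-2.17 to -1.86) in control mice, so the lower level was seen in the control pair alone. Their part in the members' values was not tested.

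Of genes upstream of the members, none passed for either effect in edgeR, DESeq2 or limma-voom. Over all genes tested in edgeR, 1.22% rose and 0.258% fell with genotype, and 0.333% rose and 0.392% fell with injection. The lists held 6 serum response and ternary complex factors, 12 genes of the ERK module, 8 calcineurin and NFAT genes, 12 CREB and MEF2 regulators and 15 genes of proximal NK activating signalling. The highest count at an unadjusted p under 0.05 was 4 of 12, that of the CREB and MEF2 regulators for genotype, where 10.4% of all genes tested were under it. The CREB and MEF2 regulators act on the promoters of Nr4a1 and its relatives. For genotype in injected mice 8 of 12 had an interval below 0, against 27.6% of all genes, with a median of -0.19. In control mice 6 of 12 lay below 0, against 18.7% of all genes, with a median of -0.09. The largest sizes in injected mice were -0.49 for Hdac4 and -0.47 for Hdac5, which encode class IIa histone deacetylases that repress MEF2. Hdac7, of the same class and list, went the other way at 0.22 (0.15 to 0.29). For genotype in injected mice the proximal signalling genes had 10 of 15 intervals above 0 and 3 below it. Over all genes these shares were 27.2% and 27.6%. Their median was 0.13, with Plcg2, a phospholipase C, at 0.95, Plcg1 at -0.49 and the kinase gene Lck at 0.42. Counting intervals narrow with more reads, so small ratios pass in genes with many reads. The RXR genes, whose proteins pair with NR4A1 and NR4A2, had 2 of 3 measured and neither passed.

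Of 31 lymphocyte genes that are associated with NR4A or EGR activity, 27 were tested. One of them is Irf4 itself, the targeted gene, whose rise of 1.72 with genotype is the one described at the opening. Apart from it, 3 rose with genotype and 0 fell in edgeR, against 1.22% and 0.258% of all genes tested. Cd200r1, an inhibitory receptor gene, rose by 1.35, Lag3, a checkpoint receptor gene, by 1.04 and Bhlhe40 by 0.48 on the log2 scale. With injection 1 rose and 0 fell, against 0.333% and 0.392% of all genes tested. Tigit, another inhibitory receptor gene, rose by 1.20. Tigit had 50.8 CPM in Irf4-/- injected and 90.1 CPM in WT injected, and 27.8 CPM in Irf4-/- control and 31.6 CPM in WT control. Lag3 had 27.7 CPM in Irf4-/- injected and 13.2 CPM in WT injected. In control mice it had 19.7 CPM in Irf4-/- and 9.78 CPM in WT. By genotype Lag3 was thus high where Nr4a1 was low. With injection both genes were higher in each genotype, Nr4a1 within counting error in the libraries labelled Irf4-/- at 0.14 (-0.04 to 0.32).

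Markers of other cells were low beside the NK cell markers, and their sums did not follow the members in one order. The 12 monocyte and macrophage markers summed to 73.6 CPM in Irf4-/- injected and 91.1 CPM in WT injected. In control mice they summed to 60.8 CPM in Irf4-/- and 39.2 CPM in WT. With injection 4 of 6 measured in Irf4-/- and 5 of 6 in WT had an interval above 0. Lyz2 was the 1 below it in each, at -1.18 (-1.48 to -0.90) in Irf4-/- and -1.31 (-1.70 to -0.98) in WT. The 8 B cell markers summed to 23.9 CPM in Irf4-/- injected and 13.8 CPM in WT injected, and to 40.8 CPM in Irf4-/- control and 36.2 CPM in WT control, and so were lower in both injected libraries, as Nab2 was. The 5 erythroid markers summed to 94.8 CPM in Irf4-/- injected and 16.8 CPM in WT injected, and to 39.5 CPM in Irf4-/- control and 32.6 CPM in WT control. The 6 neutrophil markers summed to 0.429 to 1.13 CPM, with 2 or 3 of them at 0 counts in each library. The 6 dendritic cell markers summed to 9.87 to 16.8 CPM. The 5 plasma cell markers summed to 170.7 to 201.6 CPM, nearly all of it from Xbp1 (68.0 to 91.1 CPM) and Prdm1 (86.3 to 130.2 CPM), while Sdc1, Jchain and Mzb1 each lay between 0.107 and 3.58 CPM. Their part in the members' values was not tested.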

How the data were processed

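RNA of sorted NK cells from spleen was sequenced, 1 library in each of 4 groups, prepared with a SMARTER mRNA kit per the labels' protocols. The authors deposited read counts per gene, whole and not normalized, and a table of FPKM values. TopHat, edgeR and mm10 are named per the submitters' processing notes, without versions. Not given in the sources used here are the counting tool, annotation and use of strand. Groups came from the sample titles, where treated was taken as injected. Of 35275 identifiers 34490 matched a GENCODE symbol.

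Counts were scaled by the trimmed mean of M values in edgeR 4.0.16 (R 4.3.3). Pair ratios are log2 ratios of CPM with a prior count of 2 and exact Clopper-Pearson 95% counting intervals, measured for a mean of at least 5 CPM; they carry no p-value. The tests are edgeR's quasi-likelihood test with genotype and injection as additive terms, two-sided. The 11998 genes tested reached 1 CPM in 2 or more libraries, and p-values were adjusted over all of them by Benjamini-Hochberg, with a threshold of 0.05. The model left 1 residual degree of freedom, with 9.62 prior degrees of freedom and a biological coefficient of variation of 9.98%. Standard errors are the size of the change over the square root of F. The additive and pair steps were tested on simulated data.

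The 7 members and the gene lists were chosen with earlier results of these data known. The genes named are the members, Egr4, Nab1 and Irf4, up to 6 genes of each list per comparison with the largest ratios at a mean of at least 5 CPM, and the 5 genes nearest each member in pattern; Stat6, Nemp1 and Gm16229 were added as overlapping genes. Sdc1, Jchain and Mzb1, below that mean, were named after their values were seen. Motifs were searched in RefSeq promoter windows of GRCm38.p6. Alternatives were median-of-ratios scaling, total scaling, TMM factors from all genes, other minimums and prior counts, log2 of FPKM plus 0.1, DESeq2 1.42.0, limma-voom in limma 3.58.1, the other term left out and each library left out.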

Additional observations from a re-analysis of the deposited data

Results flagged for a closer look

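Egr2 and Egr3 were set apart by a genotype ratio of opposite sign in injected and control mice, each with a counting interval clear of 0. The injected value minus the control value was 1.12 for Egr2 and 0.70 for Egr3, on the log2 scale. Nr4a3 was set apart by injection ratios of opposite sign, higher in the injected library among those labelled Irf4-/- and lower in WT, with a difference of 0.53 on the log2 scale. With 1 library a group none of these differences was tested between conditions.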

How the results depend on the processing

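Of 294 member values under alternatives, 242 kept their direction and side of the threshold or moved by less than their error, 48 moved (each with a library left out), 1 lost its call, 3 gained one and 0 reversed a call. The call of Nr4a1 for genotype was lost with the injection term left out (0 members passing), and the values with a library left out ranged between -0.91 and -0.63. Nab2 passed for injection, 1 member passing at a change of -0.51, with TMM factors from all genes (adjusted p = 0.0127), without a filter (0.0144) and under median-of-ratios scaling (0.0251). The alternative with TMM factors from all genes and those leaving out libraries were chosen after seeing the data. Leaving out libraries, the genotype value of Egr2 ranged between -0.73 and 0.39 and its injection value between -0.23 and 0.89. Over all genes, 177 passed for genotype, and 445, 374 and 482 passed with TMM factors from all genes, median-of-ratios scaling and no filter, and 5 with the injection term left out. Higher against lower calls split 299 to 146 and 261 to 113 under the first 2 of these settings, against 146 to 31 as reported. For injection 87 passed, and 161 with a 5 CPM filter, 591, 458 and 604 with those same 3 settings, and 0 with the genotype term left out. Counts of genes past 2-fold at a minimum mean of 1 CPM were 445 for genotype in injected mice (172 as reported), 221 in control mice (78), 193 for injection in Irf4-/- mice (34) and 540 in WT mice (183). No paired analysis was possible because each group held 1 library and the labels give no shared replicate. At these depths a count of 0 allows up to 0.189 CPM in the shallowest library.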
